A study of Homo sapiens with 18 samples.

Results

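Genes of androgen inactivation and reduction were examined in 18 RNA-seq libraries of LNCaP cells: the UDP-glucuronosyltransferase genes UGT2B10, UGT2B11, UGT2B15, UGT2B17 and UGT2B28, and the steroid 5α-reductase genes SRD5A1 and SRD5A3. The genes were chosen by name, with earlier results of these data known. All 7 were found among the 60649 genes of the count table. LNCaP is an androgen-responsive human prostate adenocarcinoma line. The cells of all groups were transfected with a pool of siRNAs and then kept in androgen-deprived medium; the control siRNA was non-targeting. The 6 groups of 3 biological replicates were control siRNA with vehicle (ethanol), control siRNA with 5 nM R1881, UPF1 siRNA with vehicle, UPF1 siRNA with 5 nM R1881, RCOR1 siRNA with vehicle and RCOR1 siRNA with 5 nM R1881. R1881 is a synthetic androgen, and it was given for 48 h. UPF1 is a helicase that nonsense-mediated mRNA decay requires, and RCOR1 (CoREST) is the scaffold of a histone demethylase and deacetylase repressor complex. Each gene was targeted with 1 siRNA pool in 1 cell line, and no sample of prostate tissue was measured.

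Glucuronosyltransferases attach glucuronic acid to small lipophilic molecules, which makes them soluble and ready for export. UGT2B15 and UGT2B17 are the main enzymes that conjugate dihydrotestosterone and its metabolites in the prostate, and both are long known as genes that androgen represses in LNCaP cells. UGT2B28 has also been described as conjugating steroids, UGT2B10 mainly conjugates amines such as nicotine, and the steroid activity of UGT2B11 is poorly defined. Steroid 5α-reductases act upstream: SRD5A1 converts testosterone to dihydrotestosterone, whereas SRD5A3 is best established as the polyprenol reductase that makes dolichol for N-glycosylation.

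The 5 UGT2B genes lie in 1 cluster on chromosome 4. On GRCh38 (GENCODE 29) UGT2B17 spans chr4:68537184-68568527 on the minus strand, UGT2B15 chr4:68646630-68670628 (minus), UGT2B10 chr4:68815993-68831196 (plus), UGT2B11 chr4:69199951-69214731 (minus) and UGT2B28 chr4:69280499-69295050 (plus). SRD5A3 lies outside that cluster at chr4:55346109-55373096 (plus), and SRD5A1 lies at chr5:6633343-6674386 (plus). By sequence the UGT2B genes form 2 sets of close copies. The transcripts of UGT2B17 and UGT2B15 were identical at 94.0% of 1983 aligned bases. Those of UGT2B11 and UGT2B28 were identical at 96.9%, and UGT2B10 matched this second pair at 93.9% and 94.1%. Between the sets identity was 82.8% to 83.8%. The first 60 coding bases, all in the first coding exon, show how alike the copies are and are printed 5′ to 3′ in the sense of each gene, with capitals at bases that differ from UGT2B17 in an alignment of each window with that of UGT2B17.
UGT2B17 (chr4:68568425-68568484, minus): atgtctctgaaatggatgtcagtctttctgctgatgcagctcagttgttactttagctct
UGT2B15 (chr4:68670559-68670618, minus): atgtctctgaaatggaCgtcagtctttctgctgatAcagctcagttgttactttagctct
UGT2B10 (chr4:68816020-68816079, plus): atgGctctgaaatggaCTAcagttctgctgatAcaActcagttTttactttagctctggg
UGT2B11 (chr4:69214663-69214722, minus): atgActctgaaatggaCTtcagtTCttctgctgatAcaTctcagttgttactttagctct
UGT2B28 (chr4:69280501-69280560, plus): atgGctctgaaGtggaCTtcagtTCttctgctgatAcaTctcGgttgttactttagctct
UGT2B15 differed from UGT2B17 at 2 of these bases, UGT2B11 at 7 and UGT2B28 at 9, and UGT2B10 at 7 of the 57 bases that aligned.

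Such likeness bears on how reads can be assigned. Of all 50-base stretches of the UGT2B17 transcript, 27.8% also occurred in a transcript of another gene, mostly UGT2B15, and 12.7% of 100-base stretches did. The share of 50-base stretches was 27.8% for UGT2B15, 31.7% for UGT2B10, 47.3% for UGT2B11 and 35.7% for UGT2B28, against 1.3% for SRD5A1 and 4.8% for SRD5A3. How the submitters treated reads that fit several genes is not given in the sources used here, so counts within each set of copies are of uncertain split. For this reason the counts of UGT2B15 and UGT2B17, and those of UGT2B10, UGT2B11 and UGT2B28, were also summed and tested as 1 gene each. An antisense gene that shares 418 exon bases with UGT2B11 had 0 counts in all libraries.

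RefSeq (GRCh38.p14) gave the 250 bases before the start of UGT2B15, UGT2B10, UGT2B11, SRD5A1 and SRD5A3, and the table held no entry for UGT2B17 and UGT2B28. The UGT2B windows are printed because UGT2B10 and UGT2B11, whose windows were identical at 93.1% of aligned bases, had their higher counts under opposite treatments. For UGT2B10 this rests on few counts, 13 in vehicle and 3 with R1881 with control siRNA, and the low-count filter removed it. Fitted without a filter, it was called lower with R1881 in the UPF1 siRNA arm only. Capitals mark the androgen receptor half-site letters AGAACA and the forkhead letters TGTTTAC, on either strand.
UGT2B15 (chr4:68670653-68670902, minus): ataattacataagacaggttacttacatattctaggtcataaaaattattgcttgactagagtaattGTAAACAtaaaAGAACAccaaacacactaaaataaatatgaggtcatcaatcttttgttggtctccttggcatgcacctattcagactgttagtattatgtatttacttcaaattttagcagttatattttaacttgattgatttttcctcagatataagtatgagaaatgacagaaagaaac
UGT2B10 (chr4:68815744-68815993, plus): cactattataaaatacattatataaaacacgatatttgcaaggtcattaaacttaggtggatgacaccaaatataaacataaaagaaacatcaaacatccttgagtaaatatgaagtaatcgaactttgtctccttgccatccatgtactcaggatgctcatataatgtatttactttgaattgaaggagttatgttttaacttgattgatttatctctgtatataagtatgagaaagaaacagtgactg
UGT2B11 (chr4:69214749-69214998, minus): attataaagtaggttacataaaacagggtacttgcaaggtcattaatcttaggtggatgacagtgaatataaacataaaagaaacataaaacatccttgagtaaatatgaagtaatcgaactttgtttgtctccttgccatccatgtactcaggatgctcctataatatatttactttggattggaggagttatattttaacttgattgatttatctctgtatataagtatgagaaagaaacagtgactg
Both sets of letters occurred in the UGT2B15 window and neither in those of UGT2B10, UGT2B11, SRD5A1 or SRD5A3. AGAACA occurred in 12.42% of 34943 RefSeq windows of this length and TGTTTAC in 2.98%. The windows of UGT2B15 shared 79.7% of aligned bases with UGT2B10 and 80.1% with UGT2B11. The letters TATAAA (10.75% of windows) occurred in UGT2B10 and UGT2B11 only, and the full androgen receptor palindrome and the HNF1 motif in none of the 5 windows (1 and 2 of all windows). A match of letters is a description of the sequence and no evidence of binding.

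Libraries held 10299607 to 17338235 counts. The siRNA check was as labelled: UPF1 was at 134.4 ± 17.5 CPM (read counts relative to library size, TMM-scaled, SD, n = 3) with control siRNA and 22.8 ± 2.79 with UPF1 siRNA in vehicle, and RCOR1 at 99.6 ± 8.82 and 12.8 ± 3.44 with its own siRNA. All 12 luminal prostate markers passed the low-count filter, with summed levels of 6500 to 16600 CPM. Of 10 hepatocyte markers 2 passed, with sums of 3.58 to 11.4 CPM, and of 12 stromal, endothelial, leukocyte and basal markers 4 passed, with sums of 9.31 to 50.4 CPM and CD3E, CDH5 and TP63 at 0. That last sum was 22.7 to 28.2 CPM with control siRNA in vehicle and 9.31 to 11.7 with R1881. With UPF1 siRNA it was 44 to 50.4 CPM in vehicle and 20.6 to 24 with R1881, with 2 of the 4 tested markers called higher than with control siRNA under each treatment, and with RCOR1 siRNA it was 21 to 26.8 and 11.6 to 13.6 CPM. Its part in the results was not tested. UPF1 siRNA libraries 1 and 2 with R1881 had the lowest level of genes under 40% GC (median log2 deviation of -0.63 and -0.44, against -0.32 to 0.42 elsewhere). The UGT2B transcripts, at 37.9% to 40% GC, fall in or near that class, so alternatives with GC-stratified scaling and without these libraries were run.

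In vehicle with control siRNA, UGT2B17 was the most abundant of the 7 transcripts per length, at 26.6 ± 1.86 CPM per kb of exon. SRD5A3 followed at 11.4 ± 1.18, SRD5A1 at 6.48 ± 0.372, UGT2B15 at 4.48 ± 0.721 and UGT2B11 at 0.709 ± 0.189 CPM per kb. UGT2B10 (0.168 ± 0.0526) and UGT2B28 (0.0362 ± 0.0626) were lowest, and these 2 were the only neighbours in the order whose libraries overlapped. With R1881 the order was another: SRD5A1 (9.80 ± 0.854) and SRD5A3 (9.32 ± 0.141) overlapped at the top, UGT2B28 (5.85 ± 1.74) and UGT2B11 (5.54 ± 0.887) overlapped below them, and UGT2B17 stood at 1.79 ± 0.181, UGT2B15 at 0.242 ± 0.0982 and UGT2B10 at 0.0438 ± 0.0471 CPM per kb.

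**Figure D1:**
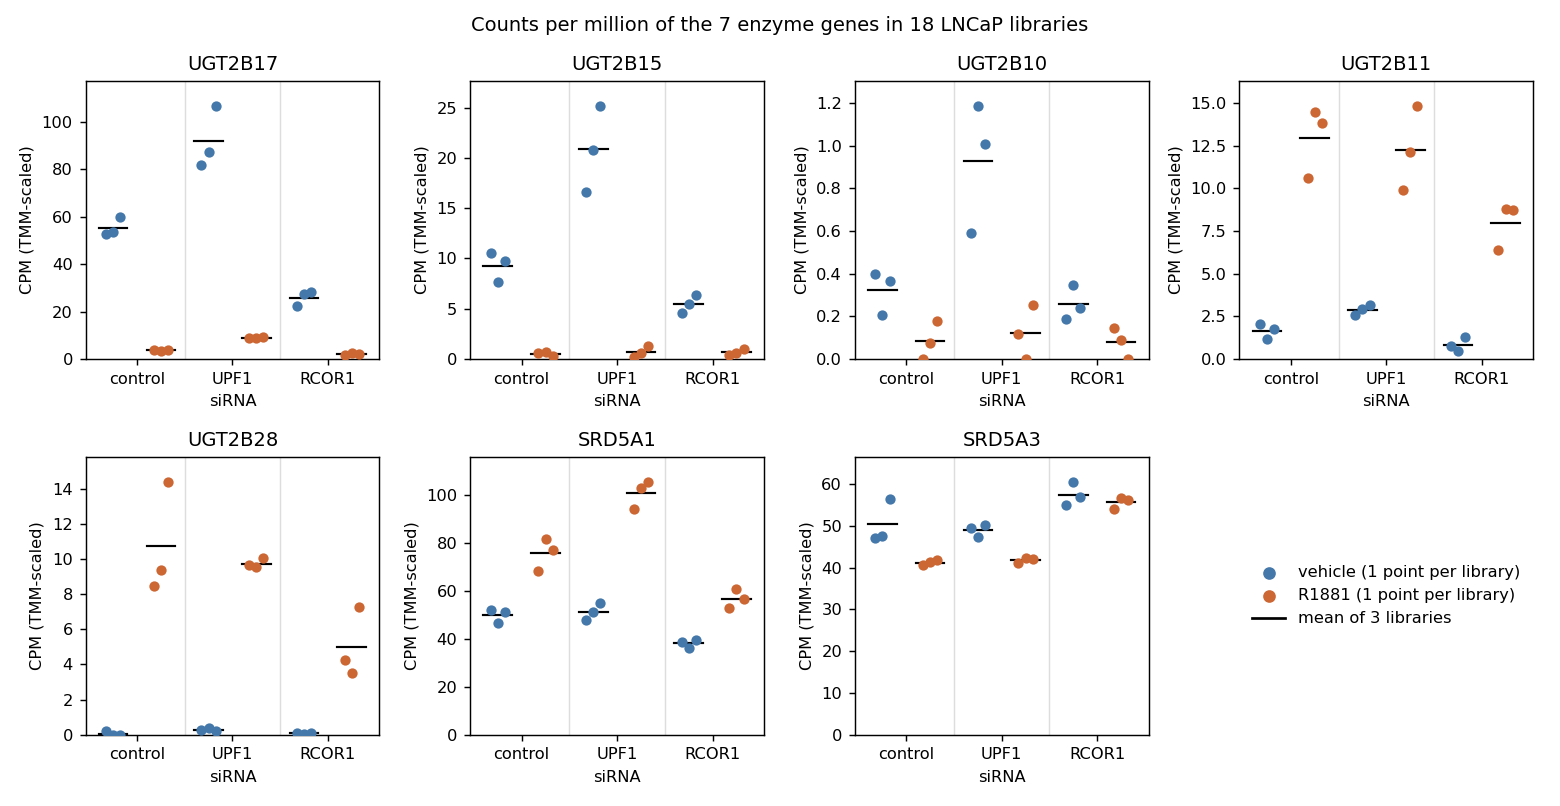
Each panel plots the TMM-scaled CPM of 1 gene (y axis from 0) in 18 LNCaP libraries by siRNA (x axis), with 1 point per library, blue for vehicle and orange for R1881, and a line at the mean of 3. UGT2B17 and UGT2B15 sit near the bottom of their panels with R1881 in each siRNA arm, UGT2B11 and UGT2B28 near the bottom with vehicle, and the 5α-reductase genes change least.

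R1881 against vehicle asks how androgen alters these genes. With control siRNA, 6 of the 7 genes passed the low-count filter and all 6 were called by edgeR's quasi-likelihood test with Benjamini-Hochberg adjustment over 15390 genes, where 37.7% of all genes were called (20.1% higher, 17.6% lower). UGT2B17 and UGT2B15 fell by 14.9- and 17.7-fold, UGT2B11 and UGT2B28 rose, SRD5A1 rose modestly and SRD5A3 fell slightly. The 6 calls were 3 higher and 3 lower, with log2 fold changes from -4.15 (UGT2B15) to 7.0 (UGT2B28). Because they lie on both sides of 0, their median of 0.15, beside 0.02 over all genes tested, does not show their size. In bulk RNA a change in the number of cells that express a gene cannot be told apart from a change in its RNA per cell. Where the libraries of different groups are said here not to overlap, this describes the named gene. The share of all genes whose groups were separate in this way was not counted.

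UGT2B17, the most abundant UGT2B transcript in vehicle, was at 52.8, 53.4 and 59.8 CPM in vehicle and 3.89, 3.29 and 3.98 CPM with R1881. Every R1881 library lay far below every vehicle library. The log2 fold change was -3.89 ± 0.14 (SE; edgeR adjusted p = 4.57e-12). UGT2B15, its close copy, was at 10.5, 7.63 and 9.72 CPM in vehicle and 0.577, 0.658 and 0.271 CPM with R1881. The groups did not overlap, and the R1881 values rested on 8, 9 and 3 counts. Its log2 fold change was -4.15 ± 0.39 (edgeR adjusted p = 3.77e-07). Summed as 1 gene the pair changed by -3.93 ± 0.15.

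UGT2B11 was at 2.05, 1.18 and 1.74 CPM in vehicle and 10.6, 14.5 and 13.8 CPM with R1881. All R1881 libraries were above all vehicle libraries, and the log2 fold change was 2.96 ± 0.25 (edgeR adjusted p = 1.15e-07). UGT2B28 went from close to nothing to the level of UGT2B11: it had 3, 0 and 0 counts in the vehicle libraries and 117, 128 and 159 with R1881. The pooled counts, 3 against 404, gave a depth-scaled ratio of 140.9 with a 95% exact interval of 47.9 to 686, which covers counting error only. The fitted log2 fold change was 7.0 ± 0.50 (edgeR adjusted p = 1.33e-08), a value that depends on the prior count because 2 vehicle libraries were at 0. It was 6.43 to 10.17 when 1 library at a time was left out, and the highest of these came without vehicle library 1, which held the 3 counts. UGT2B10, summed with these 2 copies, gave 3.53 ± 0.24.

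UGT2B10 itself was near the limit of detection. It had 6, 3 and 4 counts in vehicle and 0, 1 and 2 with R1881, and it was removed by the low-count filter. The pooled counts, 13 against 3, put vehicle at 4.14 times the R1881 level (95% exact interval 1.14 to 22.7). Fitted without a filter over 31265 genes, its log2 fold change was -1.94 ± 0.91 (edgeR adjusted p = 0.157). UGT2B10 thus had its lower counts where its near copy UGT2B11 had its higher ones.

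SRD5A1 was at 52.1, 46.8 and 51.2 CPM in vehicle and 68.5, 81.5 and 76.9 CPM with R1881. The R1881 libraries were all above the vehicle libraries, and the gene rose by 0.60 ± 0.087 on the log2 scale (edgeR adjusted p = 4.5e-05). SRD5A3 was at 47.0, 47.7 and 56.4 CPM in vehicle and 40.6, 41.2 and 41.8 CPM with R1881. The R1881 libraries were close together and below all vehicle libraries, and the log2 fold change of -0.29 ± 0.075 passed the test (edgeR adjusted p = 0.00628). That call was lost without the low-count filter (-0.31, edgeR adjusted p = 0.104) and in a fit of these 6 libraries alone (-0.33, edgeR adjusted p = 0.0721). SRD5A3-AS1, an antisense gene that shares 198 exon bases with SRD5A3, had 1 count in vehicle and 19 with R1881 over 3 libraries each, and whether reads were counted by strand is not given in the sources used here. SRD5A2, the third 5α-reductase and the main one of normal prostate, had 5 counts in all 18 libraries.

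**Figure D2:**
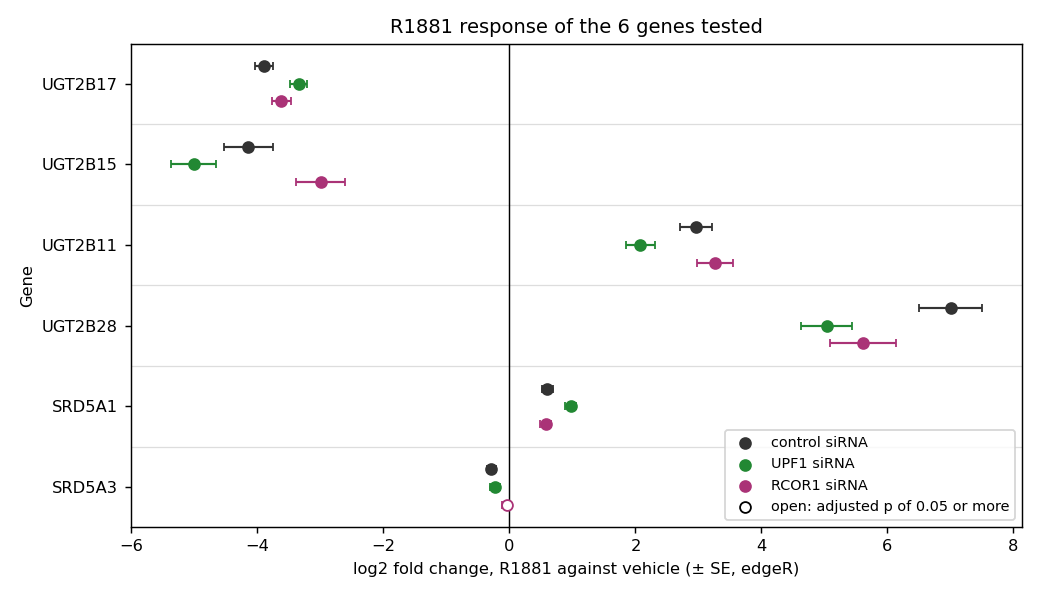
Points are log2 fold changes of R1881 against vehicle (x axis) with their standard errors for the 6 genes that passed the filter (y axis), in cells with control siRNA (black), UPF1 siRNA (green) or RCOR1 siRNA (purple). The direction of each gene is the same in the 3 arms, and the open point is SRD5A3 with RCOR1 siRNA at -0.04.

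The opposite moves changed the make-up of UGT2B transcripts. Per kb of exon the 5 genes summed to 32.0 ± 2.22 CPM per kb in vehicle with control siRNA, of which UGT2B15 and UGT2B17 made up 97.2% ± 0.868 and UGT2B11 and UGT2B28 made up 2.32% ± 0.729. With R1881 the sum was 13.5 ± 2.31 CPM per kb, with 15.4% ± 3.24 from the first pair and 84.3% ± 2.96 from the second. The ranges of the libraries did not overlap for either share. The shares moved in the same direction in the other arms. The second pair went from 2.5% ± 0.227 to 69.0% ± 0.312 with UPF1 siRNA and from 2.61% ± 0.978 to 81.5% ± 1.97 with RCOR1 siRNA. In R1881 the first pair kept a larger share with UPF1 siRNA (30.02% to 30.97%) than with control siRNA (12.87% to 19.07%). The sum went from 56.1 ± 8.43 to 15.3 ± 1.64 CPM per kb with UPF1 siRNA and from 15.6 ± 2.04 to 7.51 ± 1.58 with RCOR1 siRNA. These shares use exon lengths from GENCODE 29 and take each gene's counts as deposited.

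**Figure D3:**
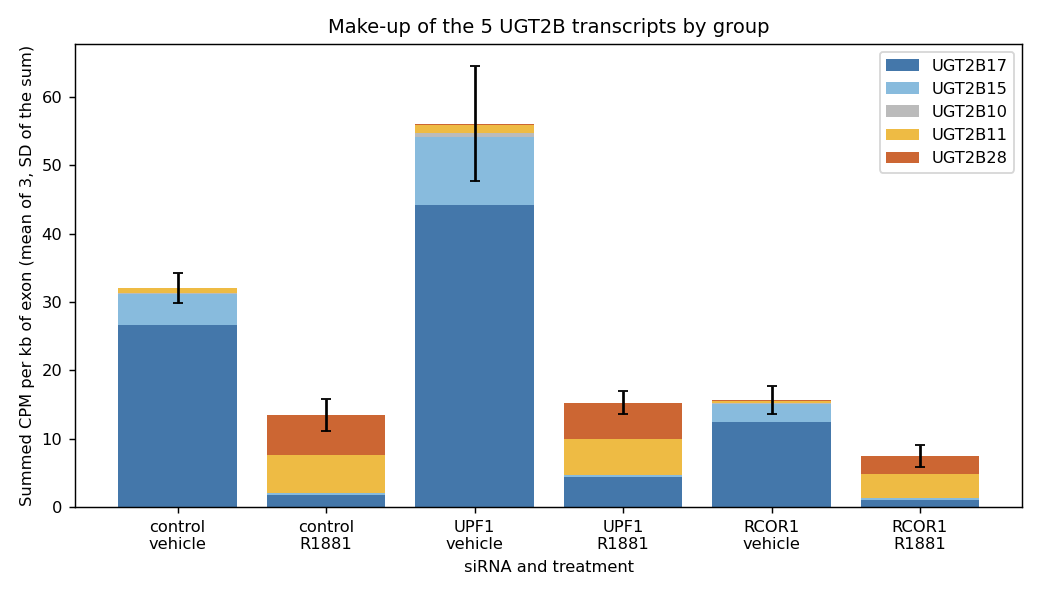
Stacked bars give the mean CPM per kb of exon of the 5 UGT2B genes (y axis from 0) in each group (x axis, n = 3), with the SD of the sum as error bar. UGT2B17 and UGT2B15 (blue) fill the vehicle bars, and UGT2B11 and UGT2B28 (yellow and orange) make up most of the R1881 bars, which are lower.

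Neighbours in the cluster differed in whether they had counts. Of the 16 UGT2 genes and pseudogenes between UGT2B29P and UGT2A1, UGT2B17, UGT2B15, UGT2B11, UGT2B28 and the pseudogene UGT2B24P passed the filter. UGT2B24P, which lies beyond UGT2B28 and matches its transcript at 95.7% of aligned bases, had 0 counts in every vehicle library. With R1881 it had 38, 66 and 28 counts over the 3 libraries of the control, UPF1 and RCOR1 siRNA arms. With vehicle set at a group total of 3 counts, the limit that 0 allows, it was 13.3-, 21.2- and 10.7-fold higher. The 95% exact intervals at that setting began at 4.21, 6.95 and 3.31. UGT2B25P, a further pseudogene, had 0, 1 and 0 counts in vehicle and 18, 26 and 13 with R1881. Reads of UGT2B11 or UGT2B28 cannot be told apart from reads of these pseudogenes where the sequences are identical. By contrast UGT2B7, which lies between UGT2B10 and UGT2B11 and is a major steroid-conjugating enzyme of liver, had 15 counts in all libraries together, UGT2B4 had 41, and UGT2A1, UGT2A2 and UGT2A3 had 0. The UGT2A1 and UGT2A2 genes overlap on the same strand, and how reads that fit both were treated is not given.

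**Figure D4:**
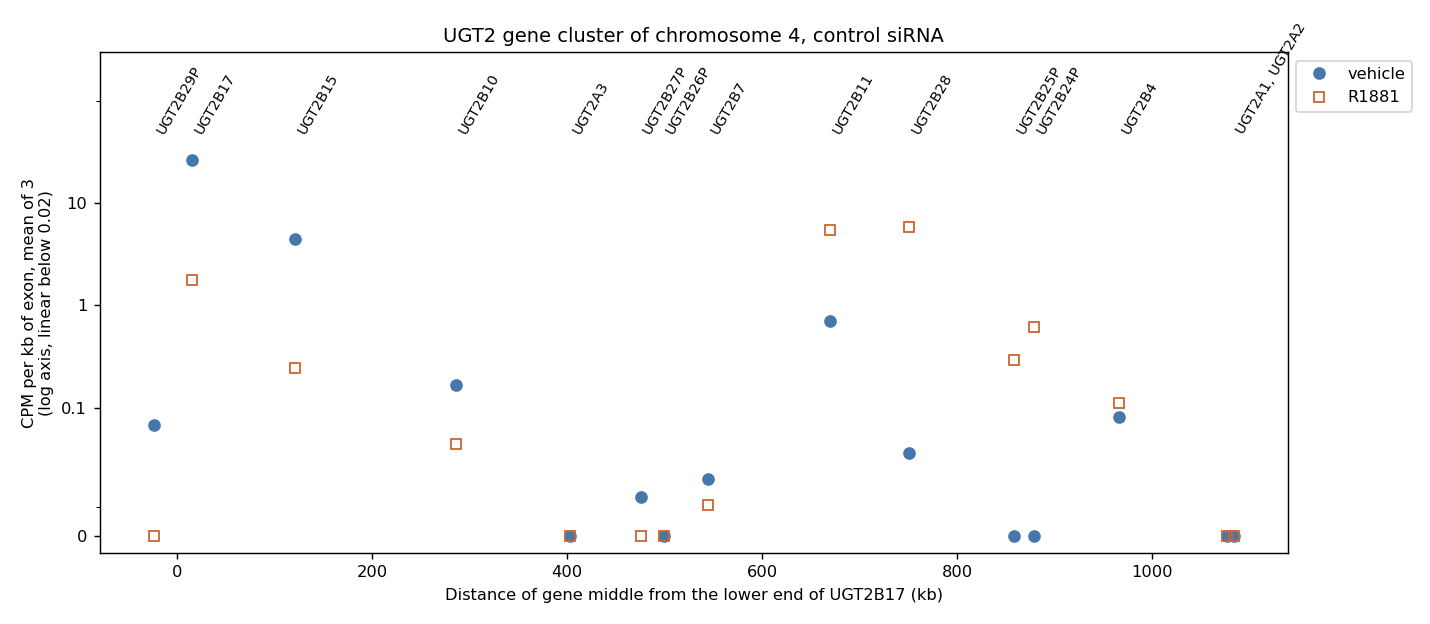
Mean CPM per kb of exon (y axis, logarithmic, linear below 0.02) of the UGT2 genes and pseudogenes with control siRNA, against the distance of each gene's middle from the lower end of UGT2B17 in kb (x axis), for vehicle (filled circles) and R1881 (open squares), n = 3. UGT2B17, UGT2B15 and UGT2B10 at one side are higher with vehicle, and UGT2B11, UGT2B28, UGT2B25P and UGT2B24P are higher with R1881.

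With UPF1 siRNA, R1881 moved the same genes in the same directions: 6 of 6 tested genes were called, 3 higher and 3 lower, where 41.6% of all genes were called (21.6% higher, 20% lower). UGT2B17 was at 81.5, 87.2 and 106.4 CPM in vehicle and 8.71, 9.03 and 9.36 with R1881 (log2 fold change -3.34 ± 0.13). UGT2B15 was at 16.7, 20.8 and 25.1 CPM and fell to 0.174, 0.630 and 1.28 (-5.01 ± 0.36), from 3, 9 and 15 counts. None of the 6 tested genes had overlapping groups in this arm, and the share of all genes that separated so was not counted. UGT2B11 was at 2.57, 2.92 and 3.18 CPM in vehicle and 9.87, 12.1 and 14.8 with R1881 (2.08 ± 0.23), and UGT2B28 had 4, 5 and 3 counts and then 166, 136 and 118, a pooled ratio of 33.7 (95% exact interval 19.1 to 65.8). UGT2B10 had 9, 15 and 14 counts in vehicle and 2, 0 and 3 with R1881, and vehicle was at 7.88 times the R1881 level (3.10 to 25.7). Here the fit without a filter called it lower (-2.86 ± 0.70, edgeR adjusted p = 0.000889). SRD5A1 rose from 48.0, 51.3 and 54.8 to 94.3, 102.8 and 105.4 CPM (0.97 ± 0.087), and SRD5A3 fell from 49.4, 47.3 and 50.2 to 41.0, 42.3 and 42.1 CPM (-0.23 ± 0.075, edgeR adjusted p = 0.0228). The SRD5A3 call was lost without the filter, without UPF1 siRNA library 1 or 3 in vehicle, and without library 1, library 2 or both in R1881 (-0.21 to -0.25), so that 5 of 6 genes were called without both of the latter.

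With RCOR1 siRNA, 5 of 6 tested genes were called, 3 higher and 2 lower, where 31.2% of all genes were called (16.3% higher, 14.9% lower). UGT2B17 fell from 22.2, 27.3 and 28.2 to 1.69, 2.37 and 2.28 CPM (log2 fold change -3.62 ± 0.15), and UGT2B15 from 4.55, 5.45 and 6.35 to 0.440, 0.614 and 0.977 CPM (-3.00 ± 0.39). UGT2B11 rose from 0.748, 0.489 and 1.29 to 6.38, 8.77 and 8.71 CPM (3.26 ± 0.29). The groups of these 3 genes did not overlap, and neither did those of UGT2B28 and SRD5A1, given next. The share of all genes that separated so was not counted. UGT2B28 had 2, 1 and 1 counts in vehicle and 58, 40 and 89 with R1881 (pooled ratio 53.6, 95% exact interval 20.6 to 198.9). UGT2B10 had 11 counts in vehicle and 3 with R1881 over 3 libraries, with an interval of the ratio (0.844 to 17.8) that includes 1. SRD5A1 rose from 38.6, 36 and 39.6 to 52.7, 60.8 and 56.7 CPM (0.57 ± 0.088). SRD5A3 was at 54.9, 60.5 and 56.8 CPM and at 54.1, 56.7 and 56.2 CPM with R1881: the groups overlapped, and its log2 difference of -0.04 had a 95% interval of -0.21 to 0.12 (edgeR adjusted p = 0.705). With library size alone as scaling it was -0.24 and called (edgeR adjusted p = 0.0374).

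The interaction terms asked whether the R1881 response differed between a targeting and the control siRNA; these responses are compared with the same control libraries. For UPF1 siRNA, 0 of 6 genes were called by edgeR after adjustment, where 2.72% of all genes were (1.35% higher, 1.37% lower), 3 of 6 had an unadjusted p under 0.05, and DESeq2 called 1. The differences were 0.55 ± 0.19 for UGT2B17 (edgeR adjusted p = 0.131), 0.38 ± 0.12 for SRD5A1 (0.12) and -0.88 ± 0.35 for UGT2B11 (0.186), in units of log2 fold change. With GC-stratified scaling the UGT2B11 difference was -0.23 (edgeR adjusted p = 0.599). SRD5A1 was the gene called by DESeq2 (0.40, adjusted p = 0.038). It was also called with library size alone (0.53) and with GC-stratified scaling (0.54), and UGT2B17 was called with the same scalings (0.70 and 0.96). For UGT2B15 and UGT2B28 the 95% intervals were wide (-2.26 to 0.53 and -4.07 to 0.14). For RCOR1 siRNA 0 of 6 were called by edgeR and by DESeq2, where edgeR called 0.767% of all genes (0.227% higher, 0.539% lower), and SRD5A3 was the 1 gene with an unadjusted p under 0.05 (0.24 ± 0.11, edgeR adjusted p = 0.434).

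UPF1 siRNA against control siRNA asks how loss of the decay helicase alters the same transcripts. In vehicle 3 of 6 tested genes were called, all higher, where 34.6% of all genes were called (18.5% higher, 16% lower). UGT2B17 (0.73 ± 0.12, edgeR adjusted p = 0.000165) and UGT2B15 (1.16 ± 0.26, edgeR adjusted p = 0.00218) rose, and every UPF1 siRNA library was above every control library for both. UGT2B11 rose by 0.80 ± 0.28 (edgeR adjusted p = 0.0383), also with no overlap, but that call was lost when control vehicle library 2 (0.59) or 3, UPF1 siRNA library 2 or 3, or all other groups were left out. UGT2B28 had 12 counts against 3 (1.84 ± 0.93, edgeR adjusted p = 0.146), and without control library 1, which held those 3 counts, the fit gave 5.00 and called it. UGT2B10 had 38 counts against 13, a ratio of 2.83 (95% exact interval 1.48 to 5.80), and its fit without a filter gave 1.46 ± 0.60 (edgeR adjusted p = 0.0939). SRD5A1 and SRD5A3 differed by 0.04 (95% interval -0.15 to 0.23) and -0.04 (-0.20 to 0.12). The mean CPM of all 5 UGT2B genes was higher with UPF1 siRNA in vehicle, and 3 of these differences passed the test.

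In R1881 2 of 6 genes were called, both higher, where 33.3% of all genes were called (17.6% higher, 15.7% lower). UGT2B17 was 1.28 ± 0.15 higher with UPF1 siRNA (edgeR adjusted p = 9.39e-06), and SRD5A1 was 0.41 ± 0.086 higher (edgeR adjusted p = 0.00179). The groups did not overlap for either gene. UGT2B11 differed by -0.09 (95% interval -0.53 to 0.36), UGT2B28 by -0.13 (-0.67 to 0.41), SRD5A3 by 0.02 (-0.14 to 0.18) and UGT2B15 by 0.30 with a wide interval (-0.94 to 1.53). With GC-stratified scaling UGT2B11 turned to 0.42 higher (edgeR adjusted p = 0.0071). Summed with UGT2B17, UGT2B15 gave 1.2 ± 0.16, which mostly measures the more abundant UGT2B17.

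RCOR1 siRNA against control siRNA in vehicle changed 2 of 6 genes, both lower, where 11.5% of all genes were called (5.31% higher, 6.21% lower). UGT2B17 fell by 1.09 ± 0.12 on the log2 scale (edgeR adjusted p = 3.31e-05) and SRD5A1 was at -0.39 ± 0.088 (edgeR adjusted p = 0.00824). For both, all RCOR1 siRNA libraries were below all control libraries. UGT2B11 (-1.0 ± 0.34, edgeR adjusted p = 0.0706) and UGT2B15 (-0.78 ± 0.27, edgeR adjusted p = 0.082) missed the threshold, and both passed it with DESeq2, without the filter and with GC-stratified scaling. UGT2B11 also passed without control vehicle library 2 (-1.21) or RCOR1 siRNA library 3 (-1.40), and UGT2B15 without UPF1 siRNA library 1 or 3 in R1881, which enter only the estimate of spread. SRD5A3 differed by 0.19 (95% interval 0.03 to 0.35, edgeR adjusted p = 0.122), and was called without control vehicle library 3 (0.28). UGT2B28 had 4 counts against 3, and UGT2B10 had 11 against 13. The SRD5A1 call was lost without the filter and in the 6 libraries alone.

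In R1881 RCOR1 siRNA changed 5 of 6 genes, 4 lower and 1 higher, where 12.4% of all genes were called (7.33% lower, 5.06% higher). UGT2B17 was at -0.82 ± 0.17 (edgeR adjusted p = 0.00505), UGT2B28 at -1.09 ± 0.26 (edgeR adjusted p = 0.013), UGT2B11 at -0.71 ± 0.21 (edgeR adjusted p = 0.0388) and SRD5A1 at -0.41 ± 0.087 (edgeR adjusted p = 0.00515). Each RCOR1 siRNA library was below each control library for these 4 genes, and the share of all genes that separated so was not counted. SRD5A3 went the other way, 0.43 ± 0.075 higher (edgeR adjusted p = 0.00133), also with no overlap. In a fit of these 6 libraries alone the 4 genes that were lower lost their calls and SRD5A3 kept it. Without the filter SRD5A1 was not called (-0.39, edgeR adjusted p = 0.0768), and the UGT2B11 call was also lost in 8 of 18 fits that left out 1 library, among them those without control R1881 library 2 or 3 or any RCOR1 siRNA library in R1881. The UGT2B28 call was lost without control library 3 or without RCOR1 siRNA library 1 or 2 in R1881. UGT2B15 differed by 0.37 (95% interval -0.88 to 1.63), and its sum with UGT2B17 had the opposite sign, -0.61 ± 0.18 (edgeR adjusted p = 0.0357).

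**Figure D5:**
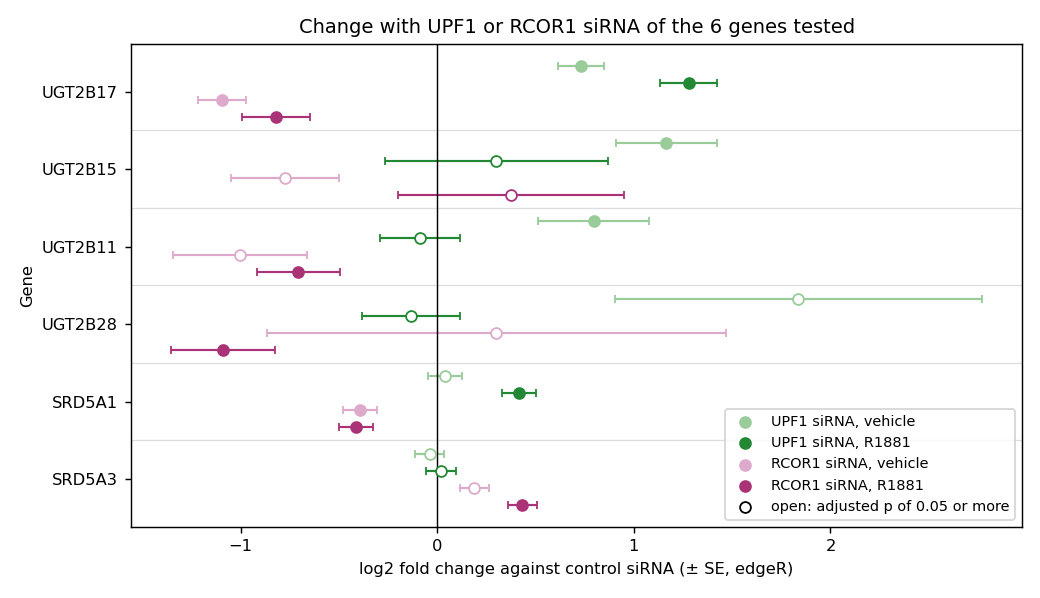
Points are log2 fold changes against control siRNA (x axis) with standard errors for the 6 genes that passed the filter (y axis), for UPF1 siRNA (green) and RCOR1 siRNA (purple) in vehicle (light) and R1881 (dark); open points have an adjusted p of 0.05 or more. UGT2B17 lies to the right of 0 with UPF1 siRNA and to the left with RCOR1 siRNA under both treatments, and SRD5A3 lies to the right with RCOR1 siRNA in R1881 at 0.43.

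Of 21 other glucuronidation genes 5 passed the filter. With control siRNA R1881 raised 2 of them and lowered 2, where 37.7% of all genes were called (20.1% higher, 17.6% lower). UGDH, which makes the UDP-glucuronic acid that every UGT2B enzyme consumes, rose from 71.9 ± 5.41 to 163 ± 11.3 CPM (SD, n = 3; log2 fold change 1.18 ± 0.087, edgeR adjusted p = 2.16e-08). UGT1A1, a bilirubin-conjugating enzyme that shares its last exons with other UGT1A genes, rose from 0.226 to 1.03 CPM (2.22 ± 0.52), UGT8 of galactolipid synthesis fell (-1.65 ± 0.43), and the glucuronide-cleaving lysosomal enzyme GUSB fell slightly (-0.30 ± 0.10, edgeR adjusted p = 0.0295, lost under 5 alternatives). UGDH was higher with UPF1 siRNA in vehicle (0.81 ± 0.087), differed by -0.05 with UPF1 siRNA in R1881 (edgeR adjusted p = 0.697), and was lower with RCOR1 siRNA in vehicle (-0.67 ± 0.087) and in R1881 (-1.42 ± 0.088).

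Of 31 genes of androgen synthesis and interconversion 16 passed, and R1881 raised 6 and lowered 1 with control siRNA, where 37.7% of all genes were called (20.1% higher, 17.6% lower). CYP11A1, which cuts the side chain of cholesterol, rose from very low counts (0.0231 to 0.634 CPM), and CYB5A, the cytochrome b5 that aids CYP17A1, rose from 124 to 239 CPM (0.94 ± 0.080). The oxidative 17β-hydroxysteroid dehydrogenases HSD17B11 (1.14 ± 0.19) and HSD17B4 (0.62 ± 0.11) rose, and AKR1C3, which reduces androstenedione to testosterone, fell (-1.58 ± 0.35). With UPF1 siRNA 4 rose and 4 fell (41.6% of all genes called), and with RCOR1 siRNA 3 rose and 6 fell (31.2% of all genes called). Of 20 genes of steroid sulfation and transport 12 passed, and 4 rose and 2 fell with control siRNA, against the same 37.7% of all genes. The conjugate exporter ABCC4 rose from 293 ± 37.2 to 1340 ± 241 CPM (2.19 ± 0.13), with ABCC1 (1.42), the sulfate-donor enzyme PAPSS1 (0.94) and steroid sulfatase STS (0.73), while the exporter ABCG2 (-2.77) and the sulfotransferase SULT1A1 (-0.39) fell. Of the 25 dolichol and N-glycan precursor genes, the pathway that SRD5A3 feeds, all passed, and 14 rose and 0 fell with control siRNA (median 0.36 beside 0.02 over all genes, of which 20.1% were called higher), among them GMPPB (1.05), PMM2 (0.92), ALG2 (0.84) and DPM3 (0.67, not called with library size alone). With UPF1 siRNA 13 rose and with RCOR1 siRNA 9 rose, and 0 fell in either, where 21.6% and 16.3% of all genes were called higher. SRD5A3 itself was called lower in the control and UPF1 siRNA arms.

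By Pearson correlation of log2 CPM over the 18 libraries, which share depth, treatment and siRNA structure, the genes most like UGT2B17 were GRIK1, CDH26 and MYRIP (r = 0.989, 0.989 and 0.988). Those most like UGT2B15 were SI, PLD1 and MACIR (0.976 to 0.969), like UGT2B11 ABCC4, FZD5 and GFM1 (0.983 to 0.978), and like UGT2B28 STEAP4, HPGD and PFKFB2 (0.989 each). For SRD5A1 the values were 0.972 with TMEM39A and 0.972 with PDIA6, and SRD5A3 reached only 0.915, 0.909 and 0.898, with CC2D2A, AC005618.6 and LINC01569. Among the members that passed the filter, UGT2B15 with UGT2B17 gave 0.924 and UGT2B11 with UGT2B28 gave 0.945. The copies within each of these pairs can share reads. Outside these pairs r ran from -0.884 (UGT2B15 with UGT2B28) to 0.891 (UGT2B11 with SRD5A1).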

How the data were processed

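RNA was measured in 18 LNCaP libraries made from total RNA after depletion of ribosomal RNA. The deposited values were raw counts of reads per gene, whole numbers without normalization. Per the submitters' processing notes, bcl2fastq 2.20, STAR 2.7.9a, featureCounts of Subread 1.6.4 and the genome build GRCh38.p7 were used. Which annotation release and strand setting were used, and how reads that fit several genes were treated, is not given in the sources used here. The 7 genes and the gene lists were chosen with earlier results of these data known.

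The tests were run with edgeR 4.0.16 (R 4.3.3): filterByExpr by group (15390 genes kept), TMM scaling, 1 mean per group over all 18 libraries and the quasi-likelihood F test (two-sided), with Benjamini-Hochberg adjustment over all genes tested and a call below 0.05. The SE was taken from the fold change and its F value (size of the log2 change over the root of F), and 95% intervals use 12 degrees of freedom. Ratios of pooled counts have exact conditional intervals and cover counting error only. The edgeR procedure was tested on simulated counts for R1881 against vehicle with control siRNA, with fewer genes changed than were called in these data. That test did not cover the other contrasts or differences in GC between libraries. The 9 contrasts were the R1881 response in 3 arms, each targeting siRNA against control in vehicle and R1881, and the interactions. Alternatives were RLE scaling, library size alone, no filter, DESeq2 1.42.0, only the groups compared, GC-stratified scaling, summed copies, and libraries left out. Sequences came from GENCODE 29 and RefSeq, with alignments by Biopython 1.88. The named genes were the 7 genes, UPF1, RCOR1, UGDH, UGT2B4, UGT2B7 and SRD5A2, up to 4 called genes per list and direction with the largest R1881 response with control siRNA, and the 3 genes most correlated with each gene tested, of which 1 is not reported here.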

Additional observations from a re-analysis of the deposited data

Results flagged for a closer look

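The R1881 response of UGDH, the enzyme that makes UDP-glucuronic acid, differed between arms by the interaction term. It was 1.18 ± 0.087 (log2 fold change, SE) with control siRNA, 0.32 ± 0.086 with UPF1 siRNA and 0.43 ± 0.087 with RCOR1 siRNA. With UPF1 siRNA it was 0.32 and not called without UPF1 siRNA libraries 1 and 2 in R1881 (edgeR adjusted p = 0.103) and 0.62 with GC-stratified scaling, and with RCOR1 siRNA it was 0.22 and not called with GC-stratified scaling (edgeR adjusted p = 0.247). The difference was -0.86 ± 0.12 for UPF1 siRNA (edgeR adjusted p = 0.00122), and it was -0.48 and not called with GC-stratified scaling (edgeR adjusted p = 0.123). It was -0.75 ± 0.12 for RCOR1 siRNA (edgeR adjusted p = 0.00731), and -0.74 and not called in a fit of the 12 libraries of that contrast alone (edgeR adjusted p = 0.0547). UGDH stood at 126 ± 6.01 CPM with UPF1 siRNA in vehicle and 157 ± 3.0 with R1881, and at 45.3 ± 2.98 and 61.0 ± 5.83 CPM with RCOR1 siRNA.

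The R1881 response of UGT1A1 also differed between UPF1 and control siRNA, by -3.06 ± 0.64 (edgeR adjusted p = 0.0172). It rests on low counts: 183 over all 18 libraries, with 0.226 ± 0.0760 and 1.03 ± 0.662 CPM in vehicle and R1881 with control siRNA, and 1.61 ± 0.0791 and 0.862 ± 0.322 CPM with UPF1 siRNA. The call was lost without control library 2 in vehicle (-2.80) or in R1881 (-2.76), without UPF1 siRNA libraries 1 and 2 in R1881 (-3.64), and in a fit of the groups compared alone. Reads of the exons that UGT1A genes share make its count uncertain.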

How the results depend on the processing

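Under 25 alternatives each, plus summed copies for the UGT2B genes, the R1881 responses of the 4 UGT2B genes tested and SRD5A1 kept their direction and call in every arm, and those that changed were SRD5A3: with control siRNA -0.31 without the filter and -0.33 with only the groups compared, with UPF1 siRNA -0.21 without the filter and -0.25 without UPF1 siRNA libraries 1 and 2 in R1881 (range -0.26 to -0.21 leaving out 1 library), and with RCOR1 siRNA -0.24 with library size alone. Reversed values were 0.42 for UGT2B11 (UPF1 siRNA, R1881, GC-stratified scaling) and -0.61 for UGT2B15 (RCOR1 siRNA, R1881, summed with UGT2B17); in the latter the sum holds mostly UGT2B17 counts, and the cause of the former was not tested.

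The number of genes called changed most as follows. Without UPF1 siRNA libraries 1 and 2 in R1881 it was 2836 (against 6405) for R1881 with UPF1 siRNA, 1812 (against 5128) for UPF1 siRNA in R1881, and 57 (against 419) and 44 (against 118) for the UPF1 and RCOR1 interactions. With only the groups compared it was 737 (against 1772) and 697 (against 1907) for RCOR1 siRNA in vehicle and R1881, and 168 and 24 for the interactions. With GC-stratified scaling it was 3514, 3316, 1695 and 488 for these 4 contrasts. The UPF1 interaction had 1320 calls without the filter and 639 with DESeq2, and the RCOR1 interaction 57 with library size alone. Leaving out 1 library gave 1166 to 1905 and 1136 to 2029 calls for RCOR1 siRNA, and 195 to 1169 and 52 to 132 for the interactions. No paired analysis was possible because the labels give no replicate numbers that the groups share; the running numbers in the library titles were not taken as pairs, and no fit with a block was run.

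Library size alone shifted the median of all genes from 0.02 to -0.22, -0.01 to -0.10 and 0.02 to -0.17 in the 3 R1881 contrasts and to 0.12 for UPF1 siRNA in R1881 and 0.15 for its interaction. The share of calls that were higher then went from 53.3% to 26.5%, 51.9% to 37.3% and 52.3% to 29.3% in the R1881 contrasts, from 52.8% to 67.1% and 40.8% to 67.7% for UPF1 and RCOR1 siRNA in R1881, and from 49.6% to 75.2% and 29.7% to 50.9% in the interactions. Depth limited UGT2B10, UGT2B28 in vehicle and UGT2B15 with R1881, which had few counts per library.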
